A study of Cricetiscus sungorus with 16 samples.

Results

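Blood vessel, lymphatic, hypoxia and smooth muscle genes were followed in the ovaries of female Siberian hamsters. The set holds 37 genes, given by the mouse RefSeq identifiers of genes with known roles in these tissues, out of 33272 transcript identifiers on the array. All 37 were on the array, and 34 of them were among the 20141 identifiers that passed the filter on dim probes and were tested. Day length was fixed from gestation on, at 16 h of light for the long-day hamsters (LD) and at 10 h for the short-day hamsters (SD). Animals were killed at an age of 3 or 8 wk, and each of the 4 groups held 4 of them. The ovaries of a hamster were pooled, and their total RNA was labelled with Cy3 and hybridised to a single-colour Agilent mouse array, giving 16 arrays on 4 slides, each slide with 1 array of each group. No strain, allele or agent beyond day length is given in the labels. The series asks how the ovary differs between day lengths at each age and how it changes between the ages within each day length.

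New capillaries form around growing follicles and within corpora lutea, and the ovary is among the few adult tissues in which vessels grow and regress in cycles. VEGF ligands drive endothelial growth through their receptors. Angiopoietin-1, made largely by cells around the vessel, activates the receptor Tie2 on endothelium and steadies the vessel wall, and angiopoietin-2 can oppose it. Pericytes and smooth muscle cells wrap the endothelium, and contractile muscle cells also lie in the outer theca around growing follicles.

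The level of a gene is the log2 intensity of its probe minus that of the 75th percentile on the same array, so a difference of 1 is a doubling of signal. Group levels are given as mean ± standard deviation over 4 hamsters, and each gene is compared only with itself, since probes differ in brightness. The 75th percentile ran from 269 to 1007 in intensity, and from 58.0% to 75.7% of the probes of an array were well above background. Slide 1 was dim: its 75th percentiles ran from 269 to 370, against 736 to 1007 on slides 2 to 4. These probes match mouse transcripts, and it was not tested whether they bound the hamster counterpart. The files pair no identifier with a symbol: the symbols used for the 37 identifiers come from general knowledge of RefSeq and were not checked against a table. As whole ovaries were measured, fewer cells of a type and less RNA per cell cannot be told apart. Granulosa, theca, stroma, oocyte and leukocyte markers were not analysed here, so their part in any result was not tested. Each group kept 1 position on all slides, so position and group cannot be told apart.

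Angpt1 (NM_009640), the gene of angiopoietin-1, rose in short-day ovaries by 8 wk and was the member with the largest change. In long-day ovaries at 3 wk its level on slides 1 to 4 was -1.36, -0.03, -0.74 and -1.03. In short-day ovaries at 3 wk it was -0.08, -1.04, -0.10 and -0.19. In long-day ovaries at 8 wk it was -0.59, -0.54, -0.57 and -1.44. All of these arrays lay below 0. In short-day ovaries at 8 wk the level was 1.46, 2.03, 2.26 and 0.46, so all 4 arrays of this group lay above all 12 arrays of the other groups.

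The short-day mean at 8 wk was 1.55 ± 0.80, against -0.78 ± 0.44 in long days, a difference of 2.34 with a standard error of 0.37 and a 95% interval of 1.55 to 3.13. This is a 5.05-fold higher signal (limma, adjusted p = 0.00407). Within single slides the difference ran from 1.90 to 2.83, positive on 4 of 4. From 3 to 8 wk in short days Angpt1 rose by 1.91 ± 0.37 (standard error), or 3.75-fold, with an adjusted p of 0.00392 in limma, and rose on 4 of 4 slides, by 0.65 to 3.07. In long days the change with age was 0.01, with an interval of -0.78 to 0.79. The age change was larger in short days by 1.90 (interval 0.79 to 3.01) and on 4 of 4 slides. That difference between day lengths had an unadjusted p of 0.00233 and an adjusted p of 0.533 in limma, so it did not pass over all identifiers. Angpt1 rests on 1 spot of 1 probe, because its other probe was well above background on 2 of the 16 arrays.

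**Figure D1:**
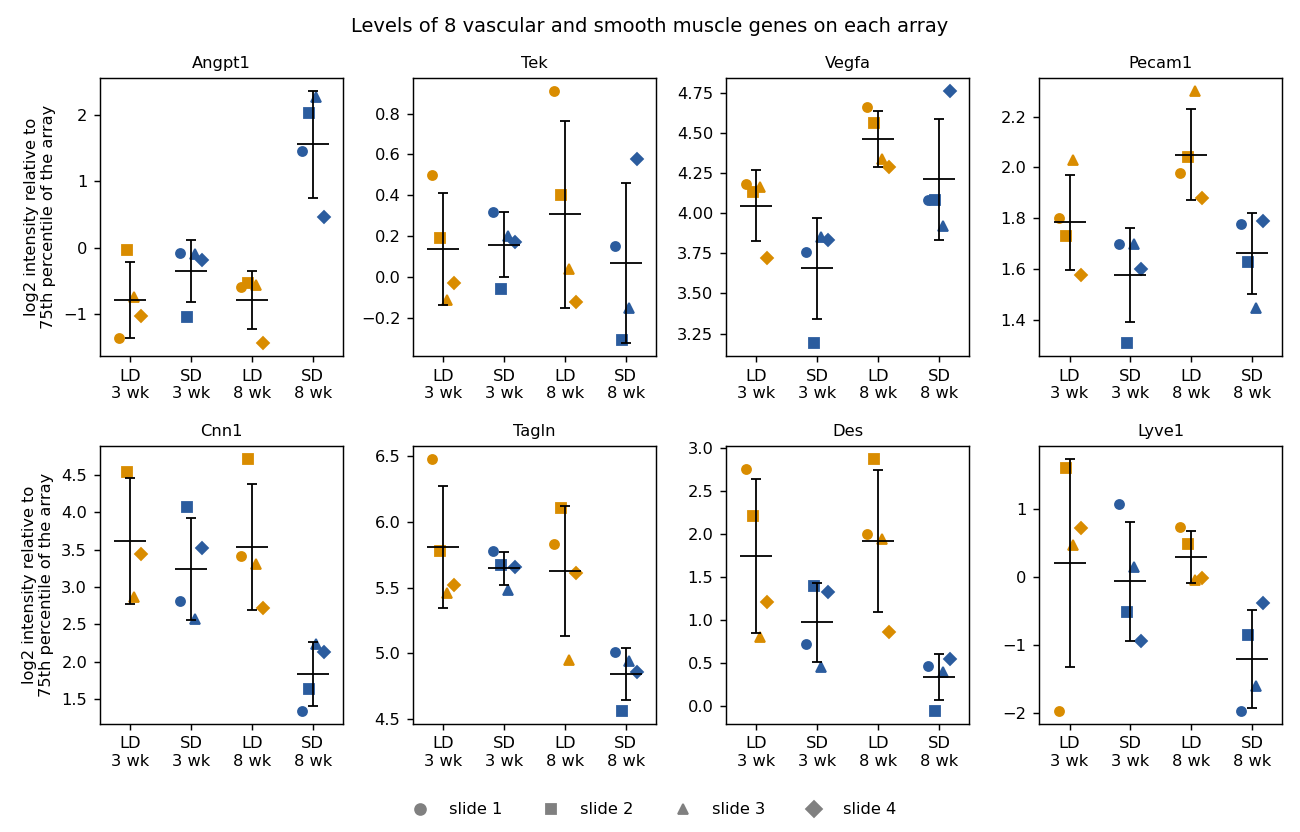
Levels of 8 genes on each array (log2 intensity minus that of the array's 75th percentile), by group on the horizontal axis. Each point is 1 hamster, its shape marks the slide, orange is long days and blue is short days, and lines show the mean ± standard deviation of 4 hamsters (3 for Cnn1 in long days at 3 wk). The short-day Angpt1 points at 8 wk run from 0.46 to 2.26, above all others, and the short-day Cnn1 points at 8 wk run from 1.34 to 2.24, below all others.

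With all slides in the fit, the other genes of the angiopoietin system did not pass the test in any of the 5 comparisons. Tek (NM_013690) encodes Tie2, the receptor of Angpt1. Its short-day minus long-day difference at 8 wk was -0.24 (interval -0.73 to 0.25), and it was negative on 3 of 4 slides. Tie1 (NM_011587), a related receptor that modulates Tie2, stood at 1.24, 1.09, 1.18 and 0.93 in short days at 8 wk and at 1.34, 2.02, 1.79 and 1.72 in long days. The 2 groups did not overlap, and the difference was -0.61 ± 0.21 (standard error), with an adjusted p of 0.329 in limma. Angpt2 (NM_007426), the antagonist, differed by 0.26 at 8 wk (interval -0.47 to 0.99). With age Angpt2 changed by -0.39 in long days and -0.50 in short days, and neither passed. In long days the change was 0.80 on slide 1 and -0.71, -0.97 and -0.66 on slides 2 to 4. In short days it was 0.06 on slide 1 and -0.84, -0.82 and -0.39 on the others. Slide 1 stood apart in both, and without it, with slide as a block, Angpt2 passed as lower at 8 wk in both day lengths. Of the 4 genes of this system, Angpt1 alone passed in the fits that used all slides.

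At 8 wk, 1 of the 34 members passed the threshold of an adjusted p of 0.05 between day lengths, which was Angpt1, against 0.958% of all identifiers tested. With slide as a block in the fit, 2 members passed, Angpt1 and Cnn1, against 2.62% of all identifiers. Before adjustment, 10 of 34 members (29.4%) had p under 0.05, against 6.94% of all identifiers. The direction was mostly down: 27 of 34 differences were negative, with a median of -0.26, against 52.0% negative and a median of -0.01 over all identifiers. The groups did not overlap for 5 members that were lower in short days (14.7%, against 1.93% of all identifiers), which were Tie1, Pecam1, Lyve1, Des and Cnn1. They did not overlap for 1 that was higher, Angpt1, against 2.18% of all identifiers. These counts come from genes measured in the same 8 hamsters and are not independent of each other, and the set was proposed with earlier results of these data known.

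**Figure D2:**
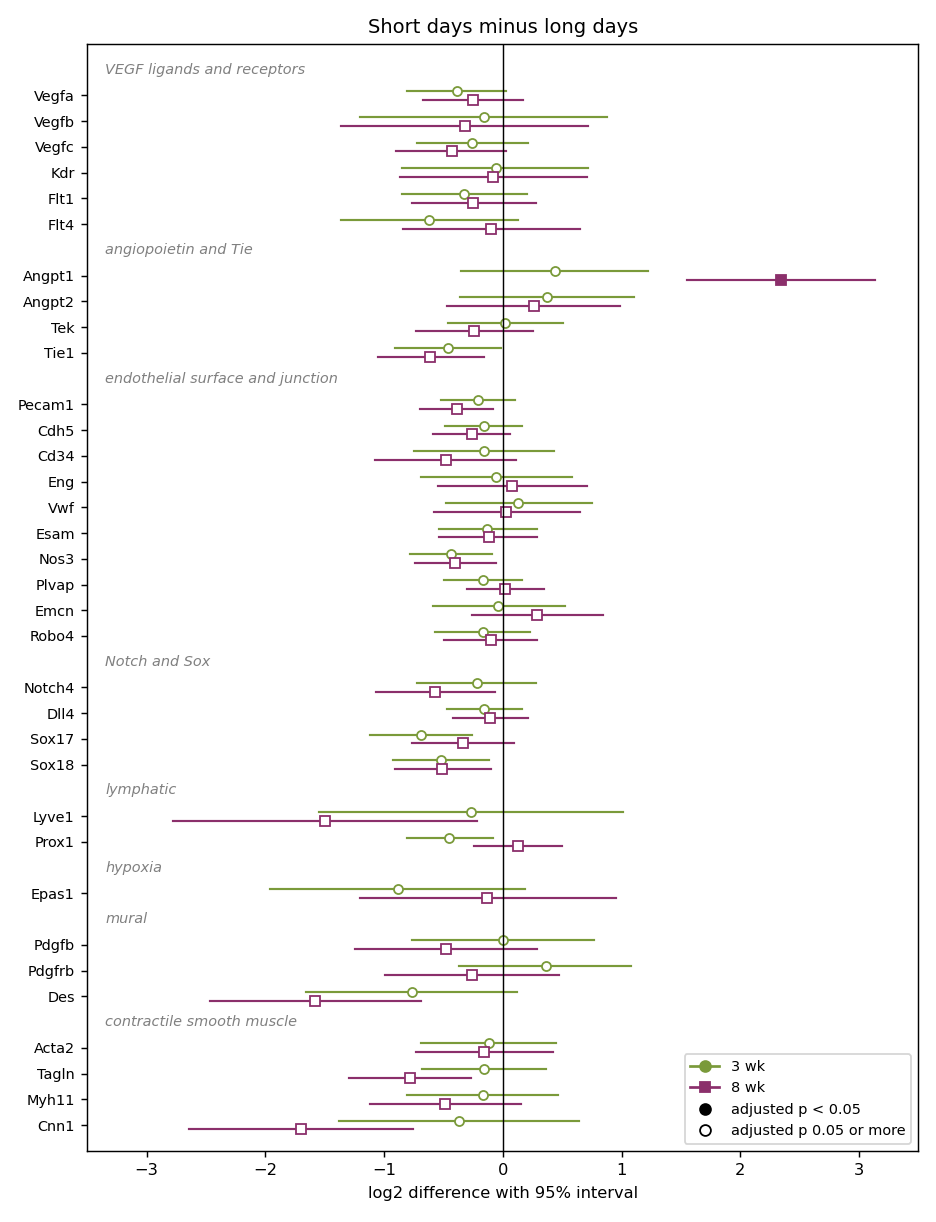
Short-day minus long-day log2 difference of the 34 tested members at 3 wk (circles) and 8 wk (squares), with 95% intervals from limma, ordered by role. Filled marks have an adjusted p below 0.05: Angpt1 at 8 wk (2.34) alone is filled, and most other marks lie left of 0.

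Among the 7 tested mural and contractile genes, on their brightest probes, Tagln alone passed the test without slide as a block, in its change with age in short days. Cnn1 (NM_009922), which encodes calponin-1, an actin-binding protein of smooth muscle, stood at 4.53, 2.87 and 3.44 on slides 2 to 4 in long days at 3 wk, its slide 1 spot being left out as an outlier. In short days at 3 wk it was 2.81, 4.07, 2.57 and 3.52. In long days at 8 wk it was 3.41, 4.71, 3.31 and 2.72. These 3 groups overlapped. In short days at 8 wk Cnn1 was 1.34, 1.64, 2.24 and 2.13, below every array of the other groups.

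The day length difference of Cnn1 at 8 wk was -1.70 ± 0.44 (standard error), a 3.25-fold lower signal, with an adjusted p of 0.103 in limma. It was negative on 4 of 4 slides, from -3.07 to -0.59, and the adjusted p was 0.0243 with slide as a block. Its change with age in short days was -1.40 ± 0.44 (standard error), with an adjusted p of 0.0602, or 0.0130 with slide as a block. When slide 1 is left out of the block fit, the adjusted p is 0.130 between day lengths and 0.0558 with age, so both block calls are lost. In long days the age change was -0.07, with an interval of -1.09 to 0.94.

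Tagln (NM_011526) encodes transgelin, another actin-binding protein of smooth muscle. Its levels were 6.48, 5.78, 5.46 and 5.52 in long days at 3 wk and 5.78, 5.67, 5.48 and 5.66 in short days at 3 wk. At 8 wk they were 5.83, 6.11, 4.95 and 5.61 in long days. In short days at 8 wk they were 5.01, 4.56, 4.94 and 4.86, below all short-day arrays at 3 wk, and overlapping long days at 8 wk through the slide 3 array.

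Tagln fell by 0.81 on the log2 scale from 3 to 8 wk in short days, a 1.75-fold lower signal (standard error 0.24, adjusted p = 0.0495 in limma). It fell on 4 of 4 slides. With slide as a block the adjusted p was 0.00993. The call lies at the threshold: it is lost in 13 of the 16 fits that leave out 1 array, where the adjusted p runs from 0.0520 to 0.155. It was kept without long-day replicate 1 at 3 wk and without long-day replicates 2 or 3 at 8 wk. A second Tagln probe gave -0.87 and did not pass in the fit over all probes (adjusted p = 0.0742). Fitting the slide as a block gave it an adjusted p of 0.0188. At 8 wk Tagln differed between day lengths by -0.78, with an adjusted p of 0.226.

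Des (NM_010043) encodes desmin, the intermediate filament protein of muscle and many pericytes. It stood at 2.75, 2.21, 0.80 and 1.21 in long days at 3 wk and at 0.72, 1.39, 0.45 and 1.33 in short days. At 8 wk the long-day arrays gave 2.0, 2.87, 1.94 and 0.86. The short-day arrays gave 0.46, -0.06, 0.40 and 0.55, all below the long-day ones. The difference at 8 wk was -1.58 ± 0.42 (standard error), a 2.99-fold lower signal. Its adjusted p was 0.109 in limma and 0.0530 with slide as a block, and neither passed. Of 30 alternatives it passed in 1, without long-day replicate 4 at 8 wk (adjusted p = 0.0375). Des was lower in short days on 4 of 4 slides, by amounts from -2.93 to -0.31. The difference at 3 wk was -0.77, with an interval of -1.66 to 0.12.

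Myh11 (NM_013607), the smooth muscle myosin heavy chain, was 1.64, 2.15, 2.33 and 2.20 in short days at 8 wk. The long-day arrays at that age gave 2.37, 3.39, 2.26 and 2.26. The groups overlapped, and the difference was -0.49, with an interval of -1.12 to 0.15. Pdgfb (NM_011057), the endothelial growth factor that recruits pericytes, differed by -0.48 at 8 wk (interval -1.25 to 0.29). With slide as a block the interval of Pdgfb was -0.84 to -0.12, and its adjusted p of 0.184 in limma did not pass. Its receptor on pericytes, Pdgfrb (NM_008809), differed by -0.26 (interval -0.99 to 0.47). Pdgfb was negative on 4 of 4 slides and Pdgfrb on 3 of 4. On their brightest probes, all 3 tested mural members and all 4 contractile members had negative differences at 8 wk, with medians of -0.48 and -0.64. These counts include Acta2, whose probes were both negative but disagreed in size (-0.16, with an interval that includes 0, and -0.96). Negative signs were common at 8 wk: 27 of the 34 members and 52.0% of all identifiers had them.

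**Figure D3:**
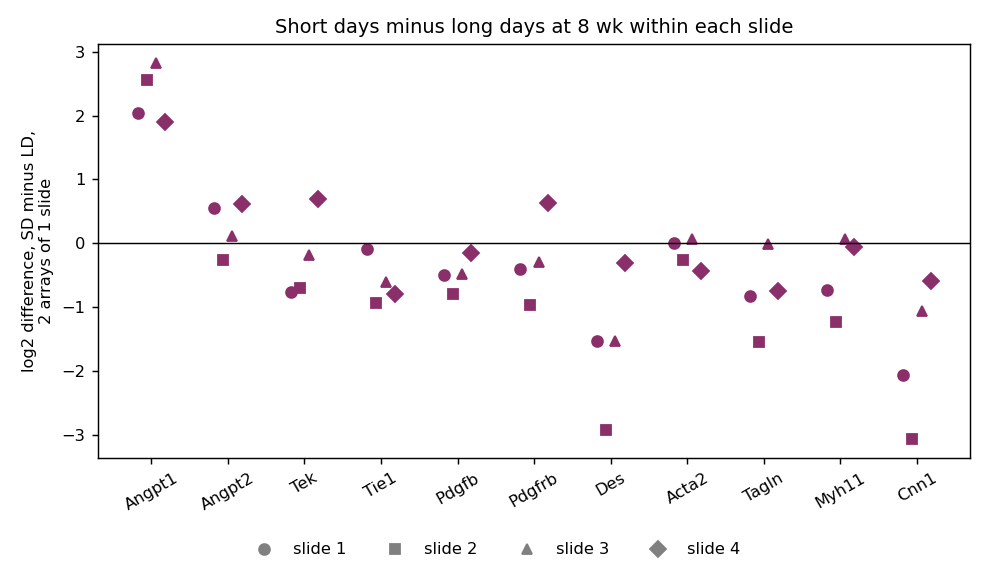
Short-day minus long-day log2 difference at 8 wk within each slide, for the angiopoietin, mural and contractile genes. Each point compares the 2 hamsters of that age on 1 slide, and its shape marks the slide. Angpt1 is above 0 on all 4 slides (1.90 to 2.83), and Cnn1 and Des are below 0 on all 4.

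Acta2 (NM_007392) encodes smooth muscle alpha-actin, and its probes disagreed in the size of the differences. The brightest probe, with 1 spot, gave 7.11, 6.51, 6.29 and 6.18 in short days at 8 wk and 7.11, 6.77, 6.22 and 6.62 in long days. These values overlap almost fully, and the difference was -0.16, with an interval of -0.73 to 0.42. From 3 to 8 wk in short days this probe changed by -0.10 (interval -0.67 to 0.48).

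A second Acta2 probe is the mean of 10 spots and was examined after its values were seen. In a fit over all 24613 probes that passed the filter, it stood at 4.10, 3.39, 4.02 and 3.96 in short days at 8 wk. In short days at 3 wk it was 5.27, 5.09, 4.73 and 4.99, above all 4 later arrays. It fell by 1.16 on the log2 scale with age in short days, 2.23-fold, with a standard error of 0.31 and an adjusted p of 0.0266 in limma. In long days it was 6.12, 4.91, 4.88 and 4.81 at 3 wk and 5.40, 5.11, 4.02 and 4.76 at 8 wk. The long-day ages overlapped, and the change was -0.36. The day length difference at 8 wk was -0.96, with an adjusted p of 0.260, or 0.0466 with slide as a block. A further probe was above background on 2 arrays. Both measurable probes had negative differences at 8 wk between day lengths and with age in short days. On the brightest probe both intervals included 0, and its age change in short days had the other sign in 2 of 30 alternatives. Which probe follows the hamster transcript was not tested, so no change is claimed for Acta2.

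**Figure D4:**
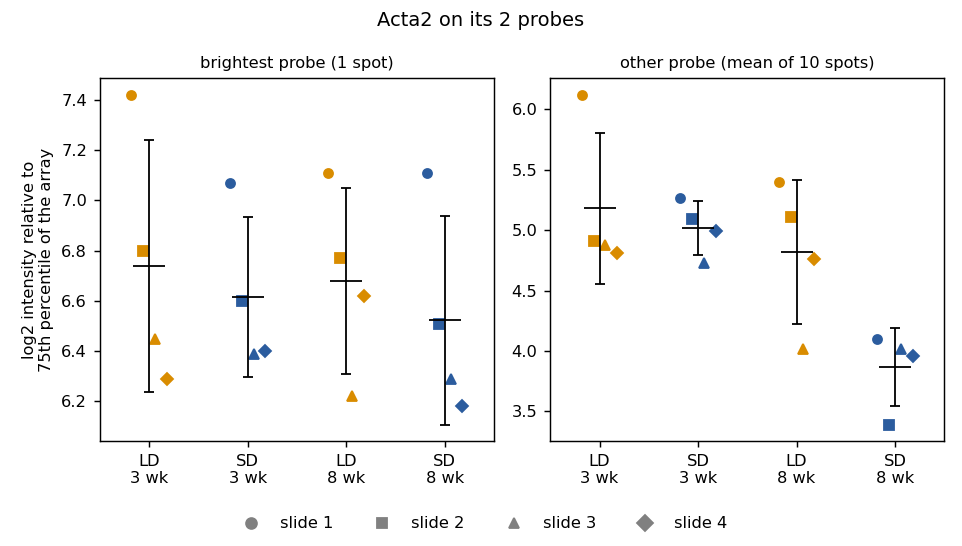
Acta2 on its 2 measurable probes (log2 intensity minus that of the array's 75th percentile). Each point is 1 hamster, its shape marks the slide, and lines show the mean ± standard deviation of 4 hamsters. On the brightest probe the short-day points at 8 wk (6.18 to 7.11) overlap the other groups, and on the other probe they run from 3.39 to 4.10, below all short-day points at 3 wk.

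None of the 10 tested endothelial surface and junction genes passed in any comparison in limma. At 8 wk 9 of the 10 had a 95% interval within a 2-fold change either way, against 81.5% of all identifiers, a share near the background. All 10 did at 3 wk (84.9% of all identifiers), with age in long days (75.8%) and with age in short days (70.8%). For the difference between the age changes 7 of 10 did, against 59.2%. Pecam1 (NM_008816), the adhesion molecule CD31 of endothelial junctions, was 1.78, 1.63, 1.45 and 1.79 in short days at 8 wk. In long days it was 1.98, 2.04, 2.30 and 1.88, above all short-day arrays. The difference was -0.39 ± 0.15 (standard error), with an adjusted p of 0.427 in limma. Cdh5 (NM_009868), the cadherin of endothelial junctions, differed by -0.26 (interval -0.59 to 0.06).

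Nos3 (NM_008713), endothelial nitric oxide synthase, was lower in short days on 4 of 4 slides at both ages. At 3 wk it stood at -0.05, -0.32, -0.16 and -0.09 in short days and at 0.42, 0.13, 0.40 and 0.17 in long days. The groups did not overlap, and the difference was -0.44 ± 0.16 (standard error), with an adjusted p of 1.0. At 8 wk the difference was -0.40, with an adjusted p of 0.526, and the groups overlapped. Cd34 (NM_133654), a surface sialomucin, differed by -0.48 at 8 wk, and its interval (-1.08 to 0.11) alone in this group reached past 2-fold. The differences of Eng (NM_007932), Vwf (NM_011708), Esam (NM_027102), Plvap (NM_032398), Emcn (NM_016885) and Robo4 (NM_028783) at 8 wk ran from -0.12 to 0.29. Plvap, the protein of fenestral diaphragms, changed by 0.27 with age in short days without overlap, with an adjusted p of 0.364.

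At 3 wk, 0 of 34 members passed in limma, with or without slide as a block, and 0% of all identifiers did. Before adjustment, 5 members (14.7%) had p under 0.05, against 1.64% of all identifiers. These were Nos3, Tie1, Sox17, Sox18 and Prox1, and each was lower in short days. The groups did not overlap for 3 members that were lower (8.82%, against 1.33% of all identifiers), which were Nos3, Sox17 and Prox1. On the second Prox1 probe the groups overlapped, with a difference of -0.45. Of the 34 differences 28 were negative, with a median of -0.17, against 62.6% negative and a median of -0.05 over all identifiers.

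Sox17 and Sox18 are transcription factors of arterial and developing endothelium. Sox17 (NM_011441) stood at 1.19, 1.03, 1.11 and 1.32 in short days at 3 wk, below the long-day arrays at 1.70, 1.58, 2.29 and 1.84. The difference was -0.69 ± 0.20 (standard error), 1.61-fold lower, with an unadjusted p of 0.00376 and an adjusted p of 1.0. At 8 wk it was -0.34 and the groups overlapped. Sox18 (NM_009236) differed by -0.52 at 3 wk and by -0.51 at 8 wk, with overlap at both ages. Notch4 (NM_010929), an endothelial Notch receptor, differed by -0.57 at 8 wk, with an adjusted p of 0.559, on 4 of 4 slides. The ligand of arterial and tip cells, Dll4 (NM_019454), differed by -0.16 at 3 wk and by -0.11 at 8 wk, and both intervals lay within 2-fold.

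The VEGF system held no member past the threshold, and the sign was negative for all 6 members between day lengths at both ages. Over all identifiers 62.6% were negative at 3 wk and 52.0% at 8 wk. The smallest differences among the 6 were those of Kdr, -0.06 at 3 wk and -0.08 at 8 wk. Vegfa (NM_009505), the main endothelial growth factor of growing follicles, stood at 4.18, 4.13, 4.16 and 3.72 in long days at 3 wk. In short days at 3 wk it was 3.76, 3.19, 3.85 and 3.83. At 8 wk it was 4.66, 4.56, 4.34 and 4.29 in long days and 4.08, 4.08, 3.92 and 4.76 in short days. On this brightest probe the arrays at 8 wk lay above those at 3 wk in each day length.

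Vegfa was higher at 8 wk by 0.42 in long days (adjusted p = 0.386 in limma) and by 0.55 in short days (adjusted p = 0.104), on 4 of 4 slides in each. The other Vegfa probes gave 0.33 and 0.09 in long days and 0.56 and 0.13 in short days. In both day lengths the ages overlapped on the second of these probes and not on the first. The first of these passed in short days in the fit over all probes (adjusted p = 0.0384), and was chosen after its values were seen. Between day lengths Vegfa differed by -0.39 at 3 wk and by -0.25 at 8 wk. The other ligands Vegfb (NM_011697) and Vegfc (NM_009506) differed by -0.32 and -0.43 at 8 wk. The second probe of Vegfb gave 0.06, the opposite sign. The main VEGF receptor Kdr (NM_010612) differed by -0.08 (interval -0.87 to 0.71), the decoy receptor Flt1 (NM_010228) by -0.25 and the lymphatic receptor Flt4 (NM_008029) by -0.10.

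With age in long days, 0 of 34 members passed in limma with or without slide as a block, against 2.98% of all identifiers without it and 11.9% with it. At an unadjusted p under 0.05 the counts were 0 of 34 without the block, against 13.4% of all identifiers, and 1 of 34 with it, against 25.9%. Of the 34 members 28 had a 95% interval within a 2-fold change, against 75.8% of all identifiers. The members' median change was -0.03, against -0.04 over all identifiers. The arrays of the 2 ages did not overlap for 1 member, Vegfa on its brightest probe, which was higher at 8 wk, against 3.44% of all identifiers.

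With age in short days, 2 of 34 members passed in limma (5.88%), Angpt1 upward and Tagln downward, against 9.16% of all identifiers. With slide as a block 3 passed, the third being Cnn1, against 23.1% of all identifiers. The share of members called is below that of all identifiers in both fits. At an unadjusted p under 0.05 there were 4 members (11.8%), against 20.4%. The ages did not overlap for 3 members that were higher at 8 wk (8.82%, against 8.12% of all identifiers). These were Vegfa on its brightest probe, Angpt1 and Plvap. For 2 members that were lower, Tagln and Cnn1, the ages did not overlap either (5.88%, against 7.83%). The median change of the members was -0.05, against 0.00 over all identifiers. The contractile members had a median of -0.66 on their brightest probes, with Acta2 at -0.10 (interval -0.67 to 0.48).

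**Figure D5:**
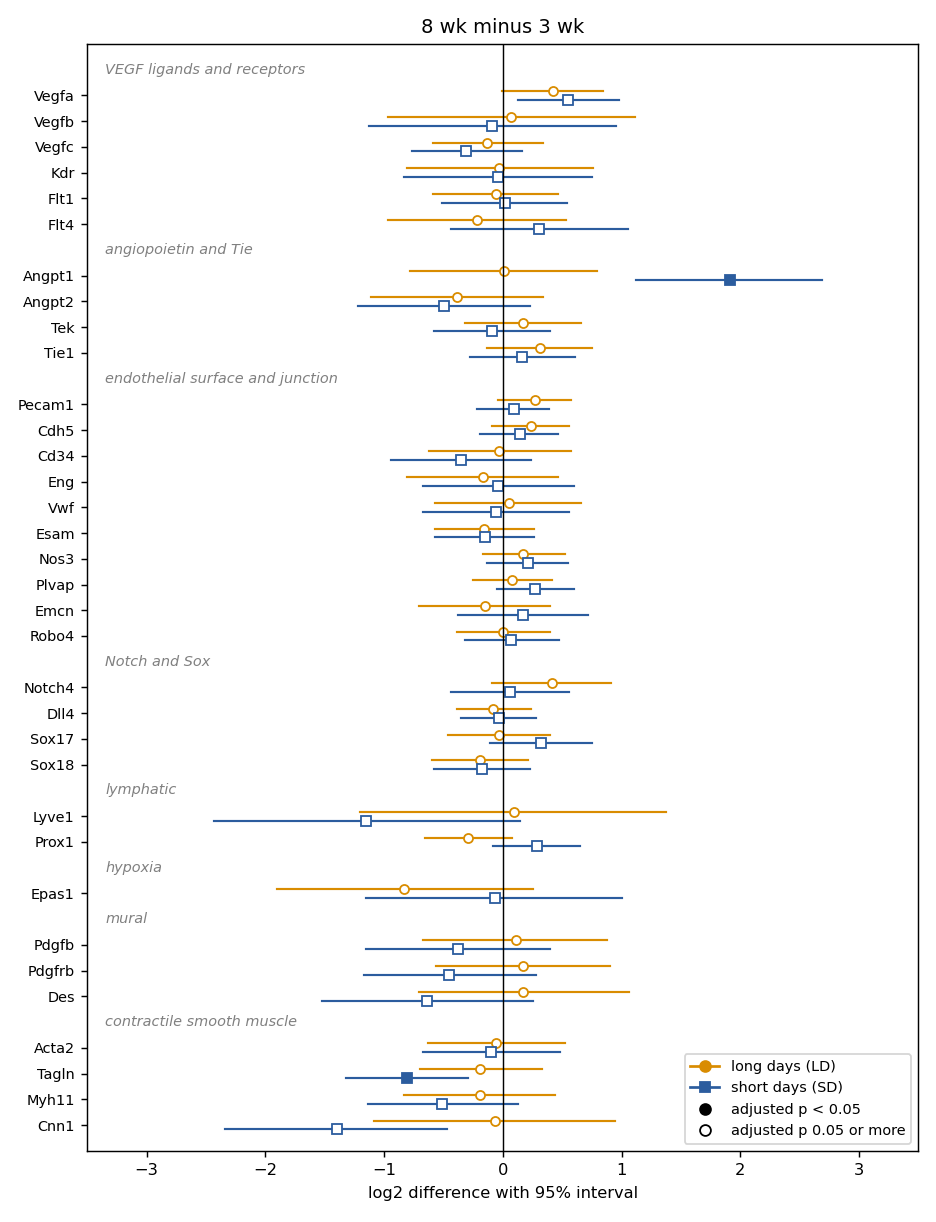
Log2 difference between 8 and 3 wk of the 34 tested members in long days (circles) and short days (squares), with 95% intervals from limma, ordered by role. Filled marks have an adjusted p below 0.05: Angpt1 (1.91) and Tagln (-0.81), both in short days.

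The difference between the age changes of the 2 day lengths passed for 0 of 34 members in limma, with or without slide as a block, against 0.0596% of all identifiers without it and 0.174% with it. At an unadjusted p under 0.05 there were 2 members (5.88%), Angpt1 and Prox1, against 3.05% of all identifiers. Prox1 (NM_008937), the transcription factor of lymphatic endothelial identity, differed by 0.58 (interval 0.06 to 1.09, adjusted p = 1.0), on 4 of 4 slides. Its second probe gave 0.39. Cnn1 differed by -1.33, with an interval of -2.71 to 0.05. So a change with age that passed in short days was not shown to differ from that in long days for any member.

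Lyve1 (NM_053247), the hyaluronan receptor of lymphatic endothelium and of some macrophages, varied widely between hamsters. Its values in long days at 3 wk were -1.97, 1.61, 0.47 and 0.72, and in short days at 3 wk they were 1.07, -0.52, 0.14 and -0.94. At 8 wk they were 0.73, 0.49, -0.04 and -0.02 in long days. In short days at 8 wk they were -1.98, -0.85, -1.61 and -0.39, all below long days at that age. The difference was -1.50 ± 0.60 (standard error), with an adjusted p of 0.525, and the second probe gave -1.52. Prox1 differed by 0.13 at 8 wk (interval -0.24 to 0.50), and its second probe gave -0.06.

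The hypoxia factors could be described only in part. Epas1 (NM_010137), which encodes HIF-2 alpha, was near background. It stood at -2.81, -3.75, -4.05 and -2.27 in long days at 3 wk and at -4.50, -4.20, -3.20 and -4.52 in short days. At 8 wk it was -5.28, -4.40, -3.36 and -3.17 in long days and -3.89, -4.86, -3.33 and -4.64 in short days. All 4 groups overlapped, and the differences were -0.88 between day lengths at 3 wk (interval -1.96 to 0.19) and -0.83 with age in long days (interval -1.90 to 0.25). The latter was -0.42 without long-day replicate 1 at 8 wk, -0.51 without long-day replicate 4 at 3 wk and -0.28 without slide 1. It was -0.21 under the normexp background correction that leaves out spots far below their local background.

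The 3 members that were not tested were Hif1a, Icam2 and Rgs5. Hif1a (NM_010431), the oxygen-regulated HIF-1 alpha, was bright, but its spot was left out as an outlier on slide 1 in 3 groups. On the 13 arrays left its level ran from 4.18 to 4.88. With outlier spots kept, its differences between day lengths were -0.12 at 3 wk and -0.20 at 8 wk, and its age change in short days was -0.33 (adjusted p = 0.150). Icam2 (NM_010494), an endothelial adhesion molecule, was well above background on 12 arrays, 3 in each group, and on none of slide 1. Rgs5 (NM_009063), a signalling regulator abundant in pericytes, was above background on 7 arrays. Without the filter neither passed in any comparison.

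Vegfa, Kdr, Pecam1, Nos3 and Des had 10 spots each. The median standard deviation between spots of an array ran from 0.0547 to 0.0671, against 0.179 to 0.664 between arrays of a group. The latter holds the differences between slides as well as those between hamsters, and the highest value between spots on an array was 0.195, for Kdr. Other probes could be used for 8 members. At 8 wk between day lengths the second probe of Tagln gave -0.89 and that of Pdgfb gave -0.23, the sign of the brightest probe. With age in short days the sign differed between probes for Pdgfb, Vegfb and Vwf. The second probes gave 0.07, 0.10 and 0.22, against -0.38, -0.09 and -0.06 on the brightest. Vegfb also differed in sign with age in long days (-0.24 against 0.07), and Vwf between day lengths at 3 wk (-0.04 against 0.13).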

How the data were processed

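Per the labels' protocols, total RNA of both ovaries of each hamster was amplified and labelled with Cy3. Per the file headers, the authors used Agilent Feature Extraction 10.5.1.1, with background correction and detrending of each array. The processed intensity used here is linear and was not normalized across arrays in the deposited files. The same deposited files flag outlier spots and signal well above background. A deposited table of rounded intensity values served as an alternative.

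For the 4 short-day samples at 8 wk title and treatment name SD but 16 h of light, while the description names 10 h, which was used. Each sample has its own animal code, and replicate numbers are those of the slide.

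Control and outlier spots were left out, spots of a probe averaged, and log2 intensity taken minus the array's 75th percentile. Probes had to exceed background clearly on all 4 arrays of 1 group or more, and to be measured on 12 arrays or more, with 2 or more per group and per slide. Each identifier was represented by its brightest probe. No spot was saturated. limma 3.58.1 in R 4.3.3 (lmFit, eBayes with an intensity trend) was fitted over all 16 arrays, with Benjamini-Hochberg adjustment over 20141 identifiers, a threshold of 0.05, and slide as a block as an alternative. The number of arrays limits the precision. Deviations from the group means correlated between arrays of a slide (0.228 to 0.733), and each slide holds 1 array of each group. Standard errors and intervals are those without the block unless the block is named, so differences between slides stay in them. For the day length difference at 8 wk, the standard error of Vegfb was 0.49 without the block and 0.15 with it. That of Lyve1 was 0.60 and 0.64.

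The members and lists were chosen with earlier results of these data known. Members past the threshold, and the 2 with the largest change in each comparison, were given with every array, and others chosen after their values were seen (Tie1, Myh11, Acta2, Pecam1, Nos3, Sox17 and Lyve1). Symbols were assigned to identifiers from general knowledge. Lists of other vascular genes and of cell type markers, fixed by symbol, could not be matched and were not used here. No sequences are given.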

Additional observations from a re-analysis of the deposited data

Results flagged for a closer look

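In 14 of 135 groups of 4 hamsters, 1 array stood far from the other 3 by Dixon's test. Chance flags about 5% of groups in theory. The flagged share over all identifiers was not computed, so no excess of outliers in this set is claimed. In the VEGF system, Vegfa was low at 3.72 in long days at 3 wk (replicate 4, others 4.13 to 4.18) and at 3.19 in short days at 3 wk (replicate 2, others 3.76 to 3.85). Vegfb was high at 5.40 in short days at 8 wk (replicate 1, others 4.15 to 4.33). The slide 1 array was also the highest for Vegfb in every other group, at 5.71, 6.16 and 5.91. Flt1 was high at -3.56 (replicate 3) and Flt4 at -2.62 (replicate 2), both in long days at 3 wk.

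Angpt1 was low at -1.44 in long days at 8 wk (replicate 4, others -0.59 to -0.54) and at -1.04 in short days at 3 wk (replicate 2, others -0.19 to -0.08). Both arrays are in the groups that the short-day ovaries at 8 wk were compared with. Without each of them the day length difference at 8 wk and the short-day age change still passed in limma. Angpt2 was high at -3.42 in long days at 8 wk (replicate 1, others -4.42 to -4.36).

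Among endothelial genes, Cdh5 was low at 0.77 in short days at 3 wk (replicate 2), Eng was low at -3.40 in short days at 8 wk (replicate 1) and Robo4 was low at -3.64 in long days at 8 wk (replicate 2). Prox1 was low at -2.86 in short days at 3 wk (replicate 1). Pdgfb was high at -1.10 (replicate 1) and Myh11 at 3.39 (replicate 2), both in long days at 8 wk. On slide 1 Eng was lowest in every group (-3.73 to -3.38). Pdgfb was highest there in every group (-1.69 to -1.10). Though not flagged, Pdgfrb (1.92 to 2.69) and Acta2 on its brightest probe (7.07 to 7.42) were also highest on slide 1 in every group.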

How the results depend on the processing

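The counts of members called kept their value, within 1.5 times, under quantile normalization, the percentile over probes detected on all arrays, the filter for all 16 arrays, outlier spots kept, the deposited value table, the fit without slide 1 and the fits on the 2 groups compared. At 8 wk the count was 2 with slide as a replicate block (Angpt1 and Cnn1) and 1 to 2 when 1 array was left out, with Tagln added without long-day replicate 3 at 8 wk and Des without long-day replicate 4. With age in short days it was 1 without the filter on dim probes and 1 with the mean of all probes, as Tagln was lost, and 1 to 3 when 1 array was left out. The replicate block gave 3 there, or 3 without slide 1 (Angpt1, Angpt2 and Tagln). With all slides it changed no call in the other 3 comparisons. In long days it was 1 (Angpt2) with the block and without slide 1, an alternative chosen after seeing the data.

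The planned normexp background correction failed on 5 arrays. At most 15 spots of an array had a local background far above their foreground, which drew the fitted background down to -3639. Under it the counts were 0 at 8 wk and 0 with age in short days, and Epas1 with age in long days turned to 0.01. Leaving out 46 spots whose background exceeded the foreground by over 50, an alternative chosen after seeing the data, gave fitted backgrounds from -11 to 11. Angpt1 then passed at 8 wk (2.15, adjusted p = 0.00209) and with age in short days (1.78, adjusted p = 0.00179), Epas1 was -0.21, and the short-day age count was 1, as Tagln had an adjusted p of 0.0576. With the replicate block as well, 2 members passed at 8 wk and 3 with age in short days. Angpt1 kept both calls in 29 of 30 alternatives, all but the failed fit. The median of all identifiers moved past 0.1 only in the failed fit (0.16, age in short days) and without the filter (0.11, difference of age changes). The differences of single slides have no test of their own, and the fit with slide as a block tests the difference over all slides. Dim probes limit Epas1, Flt1, Icam2 and Rgs5.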
